A study of Mus musculus with 3 samples.

Results

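The data described here are the UMI counts (unique molecular identifiers, each standing for 1 captured RNA molecule) of 4 genes, G6pc, Pck1, Fbp1 and Khk, out of 22535 genes in 3 single-cell libraries of mouse kidney cortex. The genes were chosen by name as genes of gluconeogenesis and fructose metabolism, not by a threshold on their levels. All mice were WT1CreERT2; Rosa26-tdTfl/+, in which Cre under control of the WT1 locus, once induced with tamoxifen, switches on the red reporter tdT irreversibly in WT1-expressing cells. In the intact kidney these are mainly podocytes and some parietal epithelial cells (PECs), so that tdT+ fractions are rich in glomerular cells and poor in tubule. The Sham library came from kidneys after sham surgery and held a renal cell mixture enriched for tdT+ cells. The IRI24h-TDN library was a mixture of tdT+ and tdT- cells from kidneys 24 h into recovery from ischemia-reperfusion injury (IRI), which was bilateral and severe, and the IRI24h-TD library held tdT+ cells alone from the same time. The animals' age is not given in the sources used here.

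The kidney cortex is, with the liver, a site where glucose is made from lactate, glutamine and glycerol, and within the nephron this takes place in proximal tubular epithelial cells (PTECs). Pck1 (cytosolic phosphoenolpyruvate carboxykinase) turns oxaloacetate into phosphoenolpyruvate, Fbp1 (fructose bisphosphatase) removes a phosphate from fructose bisphosphate, and G6pc (the catalytic subunit of glucose-6-phosphatase) releases free glucose in the endoplasmic reticulum. Khk (ketohexokinase) phosphorylates fructose, the entry step of fructose breakdown.

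Of 30008 barcodes, 26760 passed the limits on genes (200 or more) and on mitochondrial UMIs (50% or less). Sham kept 8047 cells, IRI24h-TDN 9024 and IRI24h-TD 9689, with medians of 7746, 9151 and 9529 UMIs per cell. Between the libraries, 270 kept barcodes were shared. Cells were grouped into 14 classes by clustering on genes that included none of the genes reported here, and classes were named from marker genes. The PTEC-like class held 937 Sham, 114 IRI24h-TDN and 49 IRI24h-TD cells, with 7736019, 1820383 and 466400 UMIs in total. Each condition is 1 library, so no test between conditions was possible and no p-value is given. Levels are in CPM, the gene's share of all UMIs of the class on its usual scale, with exact 95% intervals that cover counting error only. Levels are drawn for groups of at least 20 cells.

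A difference between the count tables touches every comparison of Sham with IRI. In each of 5 other classes (podocyte-like, PEC-like, mesangial-like, monocytic-like and connecting tubule-like), 37 genes were at least 8-fold lower in IRI24h-TDN than in Sham on the CPM + 1 scale, 25 of them ribosomal protein genes, and 6 genes were at least 8-fold higher. Rpl9 went from 707 to 17.1 CPM in podocyte-like cells while its pseudogene Rpl9-ps6 went from 1.06 to 18.5 CPM. None of the 4 genes was among these genes. G6pc and Fbp1, at 3.22 and 6.57 CPM in podocyte-like Sham cells, were too low to reach 8-fold on that scale. Pck1 went from 24.4 to 0.976 CPM in podocyte-like cells and from 55.7 to 6.85 CPM in PEC-like cells. Khk, which was high enough in Sham to reach 8-fold, went from 11.3 to 5.34 CPM and from 39.4 to 14.4 CPM in the same classes. Absence from this list does not by itself show that a gene was counted alike. Whether the counting of the 4 genes differed between the tables was not tested.

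The promoters of the 4 genes are shown for reference, and whether they bear on the levels was not tested. Sequences are from RefSeq (GRCm38.p6), 5′ to 3′ on the gene's strand, and cover the part of the 250 bases before the RefSeq start that lies before the start of the gene in GENCODE M21. Capitals mark any of 6 letter strings, searched on both strands: CGTCA (the core of a cAMP response element), CCAAAG (as in HNF4 sites), TGTTTT (as in FOXO sites), CACGTG (an E-box), TATAAA (the TATA box) and GTTAAT. G6pc lies on chromosome 11 (101367561 to 101377903, + strand), Pck1 on chromosome 2 (173153048 to 173159273, + strand), Fbp1 on chromosome 13 (62864753 to 62888282, - strand) and Khk on chromosome 5 (30921431 to 30931248, + strand), all in GRCm38.
G6pc, 95 bases, chr11:101367466-101367560: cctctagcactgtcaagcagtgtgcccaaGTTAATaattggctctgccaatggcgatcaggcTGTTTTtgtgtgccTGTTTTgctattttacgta
Pck1, 225 bases, chr2:173152823-173153047: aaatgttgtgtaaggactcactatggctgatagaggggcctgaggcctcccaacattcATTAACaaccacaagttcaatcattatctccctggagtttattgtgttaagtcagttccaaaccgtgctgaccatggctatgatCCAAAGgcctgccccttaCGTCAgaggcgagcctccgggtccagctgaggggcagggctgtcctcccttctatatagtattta
Fbp1, 250 bases, chr13:62888283-62888532: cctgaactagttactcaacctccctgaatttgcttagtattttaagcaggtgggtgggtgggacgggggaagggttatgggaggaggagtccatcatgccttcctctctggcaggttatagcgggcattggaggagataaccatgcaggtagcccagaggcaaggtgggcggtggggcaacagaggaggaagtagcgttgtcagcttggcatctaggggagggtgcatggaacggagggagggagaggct
Khk, 122 bases, chr5:30921309-30921430: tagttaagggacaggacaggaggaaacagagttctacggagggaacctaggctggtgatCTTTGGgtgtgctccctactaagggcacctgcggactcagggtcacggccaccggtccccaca

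Over the full 250 bases, G6pc, Pck1 and Khk each held GTTAAT and CCAAAG on either strand, strings found in 6.43% and 16.6% of 32851 mouse promoter windows of the same length. CGTCA (17.8% of windows) was present in Pck1, from 90 to 86 bases before the RefSeq start, and in Khk, from 74 to 70. TGTTTT (19.8%) and TATAAA (12.4%) were found in G6pc alone, and CACGTG (6.02%) in Khk alone, where it lay next to CGTCA at 71 to 66 bases and overlapped it. The Fbp1 window held none of the 6 strings. These matches describe letters, not bound factors.

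In Sham, all 4 genes were highest in PTEC-like cells. G6pc was at 831 CPM (810 to 851), Pck1 at 4593 CPM (4545 to 4641), Fbp1 at 973 CPM (951 to 995) and Khk at 506 CPM (490 to 522). PTEC-like cells were 11.6% of the Sham cells and held 85.5% of the G6pc UMIs of the library, 89.4% of the Pck1 UMIs, 82.3% of the Fbp1 UMIs and 68.3% of the Khk UMIs. Against all other Sham cells, the log2 difference was 5.45 for G6pc (5.36 to 5.54), 5.97 for Pck1 (5.92 to 6.01), 5.10 for Fbp1 (5.03 to 5.18) and between 3.92 and 4.08 for Khk, which was 16.0-fold higher, so that all 4 were higher by at least 2-fold, where 13.7% of 13844 genes were. Proximal marker genes, 16 of which had enough UMIs, lay between 2.42 and 6.53 with a median of 5.34 in the same comparison, although those genes chose the class and the 4 genes did not.

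The next 2 places in Sham were the same for each gene, with intervals that did not overlap their neighbours, in classes whose size changed with the processing. Injured tubule-like cells, 63 in Sham, had 562 CPM of G6pc (513 to 615), 826 CPM of Pck1 (765 to 889), 538 CPM of Fbp1 (490 to 591) and 384 CPM of Khk (343 to 428). Mixed PEC-PTEC-like cells, 206 in Sham, had 50.3 CPM of G6pc (42.0 to 59.7), 156 CPM of Pck1 (141 to 172), 114 CPM of Fbp1 and 163 CPM of Khk (148 to 179). After these, neighbouring classes had overlapping intervals at the start of the order for each gene. Connecting tubule-like cells came next for G6pc at 18.9 CPM (13.3 to 26.0) and for Pck1 at 68.9 CPM (57.8 to 81.6). They also came next for Fbp1 at 20.4 CPM (14.6 to 27.8), and PEC-like cells for Khk at 39.4 CPM (33.3 to 46.3). By the mean of the cells' own CPM, connecting tubule-like cells took places 6, 9 and 8 for G6pc, Pck1 and Fbp1. As a percent of the PTEC-like level, G6pc was highest of these there, at 2.27%. In that class 17 proximal markers had a median of 1.91% and ran from 0% to 4.71%. Whether these UMIs were carried over from other cells was not tested.

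**Figure D1:**
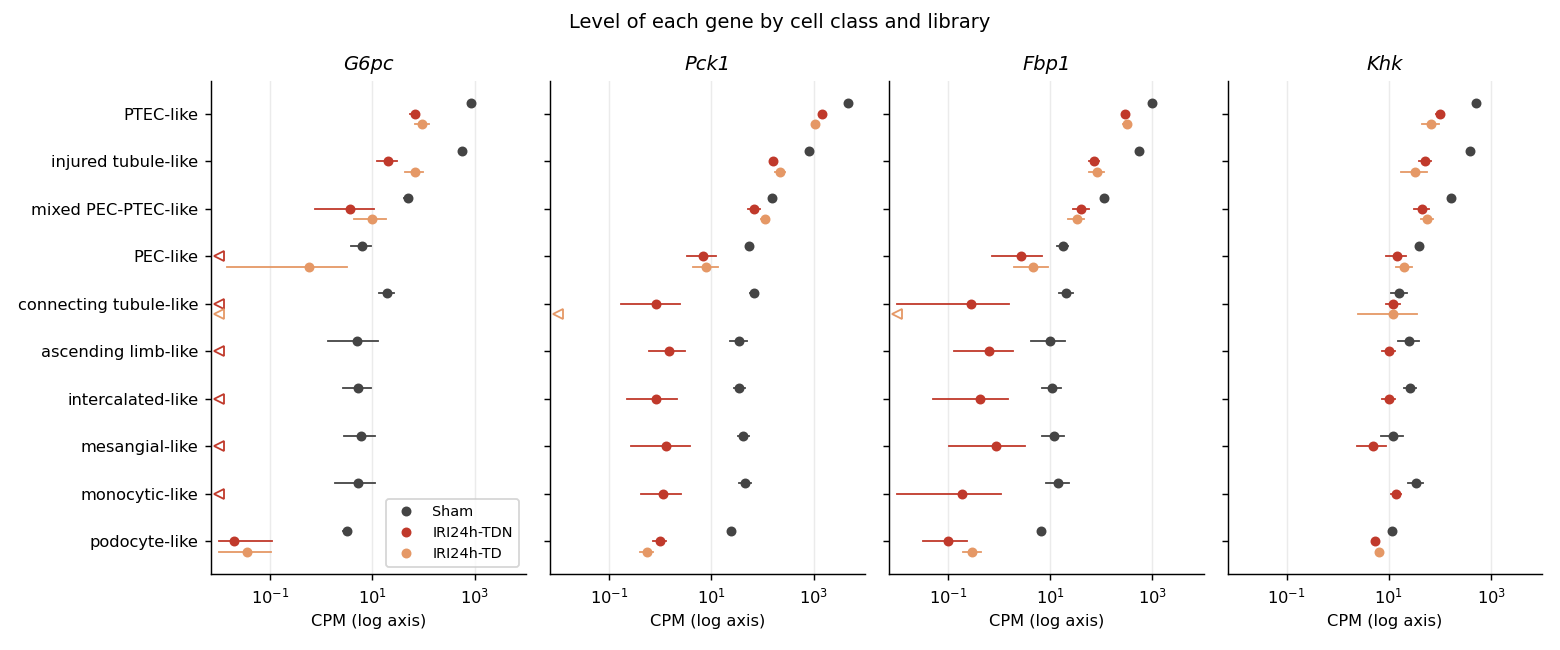
Level of each gene (CPM, log axis) in 10 cell classes, with 1 point per library of at least 20 cells and lines for the exact 95% counting interval, cut at 0.01 CPM on the left; open triangles at the left edge stand for 0 UMIs. PTEC-like cells of Sham sit highest for every gene, and in the lower 6 classes the IRI points of G6pc, Pck1 and Fbp1 lie far to the left of Sham. Those of Khk lie to the left of Sham by less, between 4.82 and 13.7 CPM against 11.3 to 33.4 CPM in Sham.

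Podocytes, which are not known for gluconeogenesis, served as a comparison for UMIs carried over from other cells. Podocyte-like cells of Sham (4366 cells, median 8327 UMIs) had 3.22 CPM of G6pc, 24.4 CPM of Pck1, 6.57 CPM of Fbp1 and 11.3 CPM of Khk, and a G6pc UMI was seen in 2.57% of them against 76.0% of PTEC-like cells (95% Clopper-Pearson interval 73.1 to 78.7, median 6949 UMIs). As a percent of the PTEC-like level, that was 0.387% for G6pc, 0.531% for Pck1, 0.675% for Fbp1 and 2.24% for Khk, while 17 proximal markers had a median of 0.480% and ran from 0.276% to 2.78%. All 4 genes lay within the range of the markers, and Khk was nearer its upper end. Whether the UMIs of the 4 genes in podocyte-like cells were carried over from other cells was not tested.

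After IRI, Khk had more UMIs than G6pc, Pck1 or Fbp1 in podocyte-like cells. Outside the classes with proximal or parietal genes, Pck1 stood out in the 38 fibroblast-like cells of IRI24h-TDN, at 148 CPM (116 to 186) against 52.1 CPM in Sham, with 95.9% of its 74 UMIs in 1 cell. In IRI24h-TDN, 5178 podocyte-like cells held 1 UMI of G6pc, 49 of Pck1, 5 of Fbp1 and 268 of Khk. Khk stood at 5.34 CPM there (4.72 to 6.02), which was 5.43% of its PTEC-like level, while 15 proximal markers had a median of 0.0853% and a highest value of 1.75%. Against podocyte-like cells of Sham (11.3 CPM), Khk was lower (log2 -1.09, -1.31 to -0.86), past 2-fold as were 7.24% of 11988 genes. In IRI24h-TD, 8454 podocyte-like cells held 3 UMIs of G6pc, 47 of Pck1, 26 of Fbp1 and 559 of Khk, the last at 6.52 CPM (5.99 to 7.08). Khk was also found at 13.7 CPM in monocytic-like cells (10.7 to 17.3), 12.1 CPM in connecting tubule-like cells (8.75 to 16.3), between those values and 9.93 CPM in ascending limb-like and intercalated-like cells, and at 9.93 CPM in distal convoluted tubule-like cells (7.70 to 12.6) of IRI24h-TDN. G6pc had 0 UMIs in each of those 5 classes, which allows at most 0.445 CPM in the distal convoluted tubule-like cells and 0.844 CPM in the connecting tubule-like cells at 3 UMIs each. Podocyte-like cells held 29.4% of all Khk UMIs of IRI24h-TDN and 75.5% of those of IRI24h-TD, and were 57.4% and 87.3% of the cells.

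In PTEC-like cells, all 4 genes were lower after IRI, G6pc by the most. G6pc went from 831 CPM in Sham to 66.5 CPM (55.2 to 79.4) in IRI24h-TDN and 94.3 CPM (68.5 to 127) in IRI24h-TD, from 6425, 121 and 44 UMIs. Pck1 went from 4593 CPM to 1430 CPM (1376 to 1486) and 1044 CPM (953 to 1141). Fbp1 went from 973 CPM to 290 CPM (266 to 316) and 313 CPM (264 to 368), and Khk from 506 CPM to 98.3 CPM (84.5 to 114) and 66.5 CPM (45.2 to 94.3). For each gene both IRI libraries lay below Sham with no overlap of the intervals, and the IRI libraries overlapped each other for G6pc, Fbp1 and Khk but not for Pck1.

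Between Sham and IRI24h-TDN, the mixtures of tdT+ and tdT- cells, G6pc was 12.5-fold lower (log2 -3.64, counting interval -3.91 to -3.38), Khk 5.15-fold lower (log2 -2.36, -2.59 to -2.15), Fbp1 3.35-fold lower (log2 -1.75, -1.88 to -1.62) and Pck1 3.21-fold lower (log2 -1.68, -1.74 to -1.63). All 4 were lower by at least 2-fold, against 13.3% of the 9435 genes with at least 50 UMIs, whose median was 0.08. Of those genes, 1.03% had a lower value than G6pc, 3.33% than Khk, 5.74% than Fbp1 and 6.08% than Pck1. Against Sham, IRI24h-TD gave log2 values of -3.14 for G6pc, -2.93 for Khk, -2.14 for Pck1 and -1.64 for Fbp1, again all past 2-fold, where 16.6% of 9063 genes were lower by as much.

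**Figure D2:**
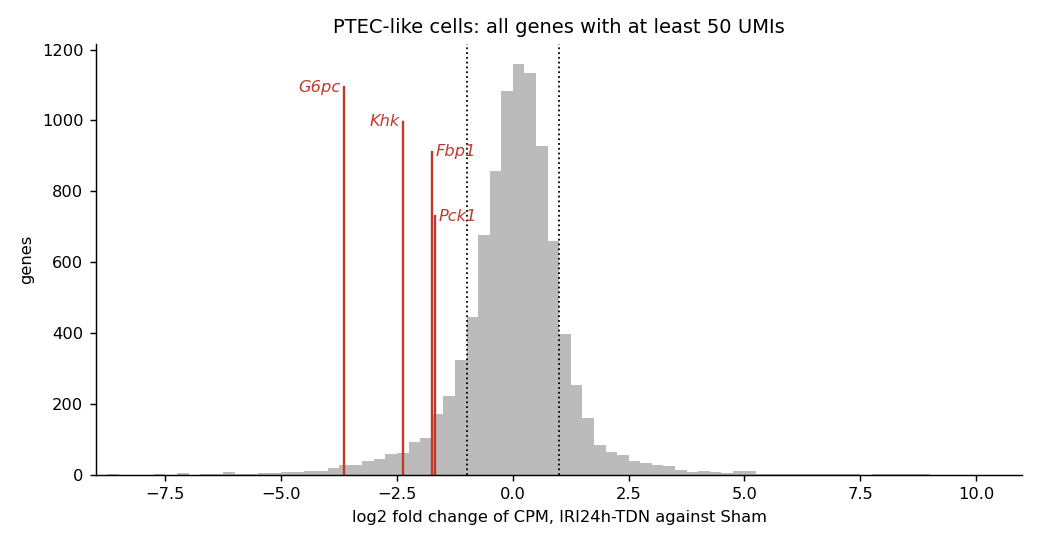
Number of genes by log2 fold change of CPM in PTEC-like cells, IRI24h-TDN against Sham, for the 9435 genes with at least 50 UMIs over both; dotted lines mark 2-fold and red lines the 4 genes. The genes lie between -3.64 (G6pc) and -1.68 (Pck1), left of the bulk of genes.

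Other properties of the PTEC-like class moved with these levels. The summed level of the 17 proximal markers went from 64484 CPM in Sham to 11458 CPM in IRI24h-TDN and 11756 CPM in IRI24h-TD, with 14 of 16 measured markers lower by at least 2-fold in IRI24h-TDN and a median log2 of -1.87. The 8 injury markers together went from 57.1 to 3027 and 2811 CPM, Havcr1 (KIM-1) alone from 5.95 to 2309 and 2305 CPM. The podocyte markers summed to 635, 291 and 1353 CPM, and the median share of mitochondrial UMIs was 17.3%, 19.2% and 16.8%. The median depth was 6949, 12822 and 1329 UMIs per cell. What part these changes had in the levels of the 4 genes was not tested, and fewer proximal cells of a kind and less RNA per cell cannot be told apart in such sums.

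Shares of cells changed in the same direction. Thinned to 2000 UMIs, G6pc had a UMI in 55.3% of 882 PTEC-like Sham cells (76.0% of all 937 before thinning) and 11.4% of 114 IRI24h-TDN cells (27.2% before). For Pck1 the thinned share went from 95.2% to 65.8%, for Fbp1 from 80.4% to 30.7% and for Khk from 57.3% to 16.7%. In IRI24h-TD only 22 of 49 PTEC-like cells reached 2000 UMIs, and 9.09% of them had G6pc. Counting over the 4 genes, 24.1% of the thinned Sham cells had a UMI of every one and 0.227% had none, whereas 1.75% of IRI24h-TDN cells had all 4 and 25.4% had none.

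Within Sham PTEC-like cells the genes did not exclude each other. Fbp1 had a UMI in 80.1% of 488 thinned cells with G6pc and in 80.7% of 394 cells without it. Khk was seen in 58.1% of 709 cells with Fbp1 and in 53.8% of 173 cells without it. The UMIs were spread over many cells in Sham, where the top cell held 1.42% of the G6pc UMIs, but not after IRI, where 1 cell held 22.3% of the G6pc UMIs of IRI24h-TDN and another 34.1% of those of IRI24h-TD.

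**Figure D3:**
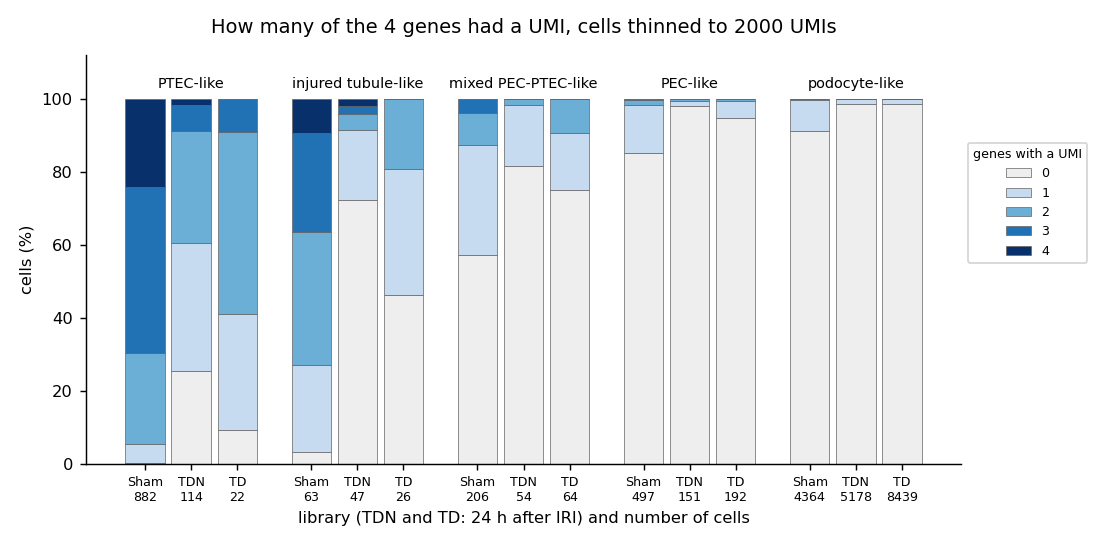
Percent of cells with a UMI of 0 to 4 of the genes, after thinning each cell to 2000 UMIs, by class and library, with the number of cells under each bar. In PTEC-like cells 24.1% of Sham and 1.75% of IRI24h-TDN cells had all 4 genes, and in podocyte-like cells over 90% of each library had none.

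PTEC-like cells fell into 1 cluster called S1/S2-like (237 Sham cells) and 6 called S3-like (700 Sham cells). S1 and S2 are the early and middle segments of the proximal tubule, and S3 is the last. Only Slc5a2 and Slc5a12 (S1 and S2) and Slc7a13 and Cyp7b1 (S3) set these names. The first pair was at 851 CPM and the second at 248 CPM in the S1/S2-like cluster. In the S3-like clusters they ran from 9.24 to 143 CPM and from 779 to 1620 CPM. Over the full marker lists, Sham S3-like cells had 8711 CPM of S1 and S2 markers and 2847 CPM of S3 markers. The names are therefore labels of clusters, not settled segments. In Sham, G6pc was at 1367 CPM in the S1/S2-like cells and 678 CPM in the S3-like cells (log2 S3 against S1/S2 -1.01, -1.09 to -0.94), and Pck1 at 2860 and 5087 CPM (log2 0.83, 0.79 to 0.87). Fbp1 stood at 1042 and 953 CPM (log2 -0.13, -0.21 to -0.05) and Khk at 491 and 510 CPM (log2 0.06, -0.05 to 0.17). Only G6pc passed 2-fold, lower in S3-like cells as 7.77% of 8862 genes were, and 3.97% were higher. Among the 6 S3-like clusters of Sham, G6pc ran from 204 to 1148 CPM, Pck1 from 2668 to 8083 CPM, Fbp1 from 776 to 1602 CPM and Khk from 428 to 813 CPM, and the clusters' median depth ran from 3192 to 12919 UMIs.

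After IRI, Pck1 differed little from Sham in the S1/S2-like cluster. It stood at 2213 CPM (2062 to 2373) in 27 IRI24h-TDN cells, 1.29-fold lower than in Sham (log2 -0.37, -0.48 to -0.26), and at 1239 CPM (1183 to 1297) in 87 cells of the S3-like clusters, 4.11-fold lower (log2 -2.04, -2.11 to -1.97). G6pc was 6.19-fold lower in the S1/S2-like cluster (log2 -2.63, -2.97 to -2.31) and 23.6-fold lower in the S3-like clusters (log2 -4.56, -5.04 to -4.12). Fbp1 was lower by 2.96-fold and 3.47-fold, and Khk by 4.18-fold and 5.45-fold. Whether the change differed between the S1/S2-like and S3-like clusters was not tested, since each holds 1 library per condition. The segment names rest on Sham cells: in the S3-like clusters Slc7a13, an S3 transporter, went from 1556 CPM in Sham to 11.6 CPM in IRI24h-TDN, Havcr1 from 7.14 to 2820 CPM, and the 6 S3 markers together from 2847 to 124 CPM, while the 8 S1 and S2 markers, the larger sum in both libraries, went from 8711 to 2983 CPM. In the S1/S2-like cluster Havcr1 reached 224 CPM.

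**Figure D4:**
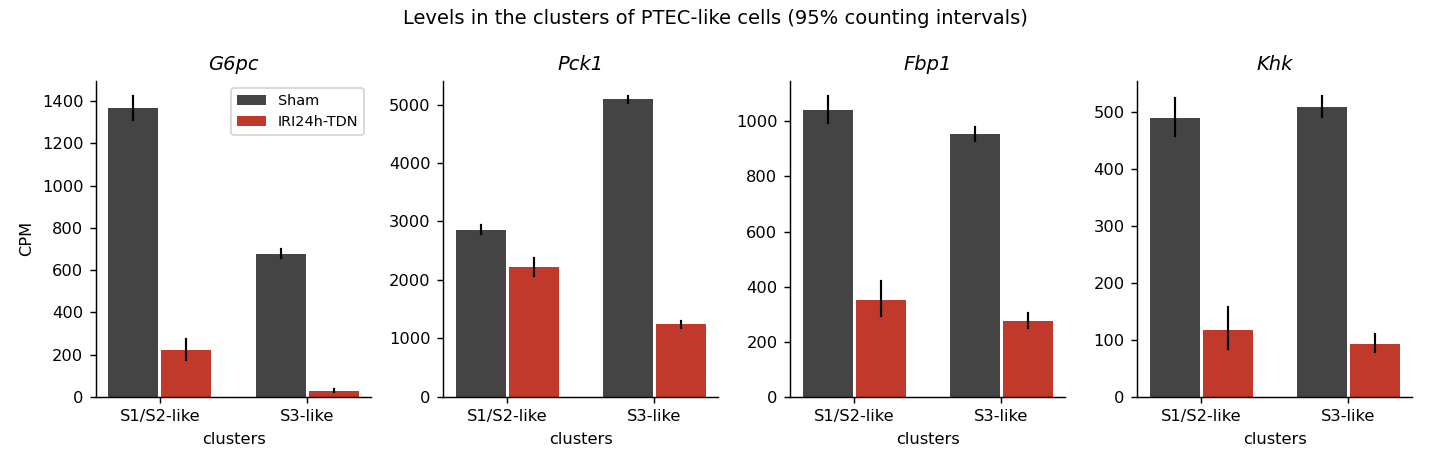
Level of each gene (CPM) in the S1/S2-like and S3-like clusters of PTEC-like cells, Sham (grey) and IRI24h-TDN (red), with exact 95% counting intervals as lines. Pck1 goes from 2860 to 2213 CPM in the S1/S2-like cluster and from 5087 to 1239 CPM in the S3-like clusters.

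The injured tubule-like class, a single cluster led by Havcr1 and Krt20 over all libraries, did not bear its name in Sham, where Havcr1 was at 67.9 CPM against 3471 CPM in IRI24h-TDN and 384 CPM in IRI24h-TD. In IRI24h-TD the class had a lower sum of injury markers (1276 CPM) than PTEC-like cells (2811 CPM), so the name did not set it apart there either. In its 47 IRI24h-TDN cells, G6pc was at 19.7 CPM (12.3 to 29.8), Pck1 at 162 CPM (139 to 187), Fbp1 at 71.6 CPM (56.8 to 89.1) and Khk at 51.0 CPM (38.6 to 66.1). Against the PTEC-like cells of that library, the log2 difference was -3.14 for Pck1 (-3.37 to -2.92), -2.02 for Fbp1, -1.75 for G6pc and -0.95 for Khk (-1.40 to -0.51). Thus 3 of 4 genes were lower by at least 2-fold, where 5.85% of 6891 genes were. As a percent of the PTEC-like level, Khk was at 51.9%, G6pc at 29.6%, Fbp1 at 24.7% and Pck1 at 11.3%. In the same cells 15 proximal markers had a median of 30.5% and ran from 2.34% to 56.4%, so all 4 genes lay within the range of the markers. Parietal markers summed to 2460 CPM in these cells and 698 CPM in the PTEC-like cells of IRI24h-TDN. A single cell held 77.3% of the G6pc UMIs and 34.8% of the Pck1 UMIs of the class there. In Sham, only Pck1 was lower than in PTEC-like cells by at least 2-fold (5.56-fold, log2 -2.48), where 8.22% of 9201 genes were, and G6pc, Fbp1 and Khk were 1.48-fold, 1.81-fold and 1.32-fold lower.

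Mixed PEC-PTEC-like cells, which had parietal markers (5220 CPM in Sham, against 79.6 CPM in PTEC-like cells) along with proximal ones (3847 CPM against 64484 CPM), held more of the PTEC-like level of Khk than of Pck1. In these Sham cells Khk was at 32.2% of its PTEC-like level, Fbp1 at 11.7%, G6pc at 6.05% and Pck1 at 3.39%, while 17 proximal markers had a median of 7.83% and ran from 0% to 183%. Against PTEC-like cells, Pck1 was 29.5-fold lower (log2 -4.88, -5.03 to -4.74), G6pc 16.5-fold, Fbp1 8.56-fold and Khk 3.10-fold lower, all past 2-fold where 10.4% of 10075 genes were. Pcx (pyruvate carboxylase) was at 10.4 against 267 CPM, whereas Fbp2, the muscle-type fructose bisphosphatase, was at 169 against 14.9 CPM and Slc37a4, the carrier of glucose-6-phosphate into the endoplasmic reticulum, at 263 against 207 CPM. Of the 10075 genes, 27.1% were higher by at least 2-fold in this comparison. In the 54 IRI24h-TDN cells of the class, G6pc had 3 UMIs (3.65 CPM, 0.753 to 10.7), and Pck1 was at 69.4 CPM, Fbp1 at 40.2 CPM and Khk at 43.8 CPM. In PEC-like cells of IRI24h-TDN (152 cells), Khk was at 14.4 CPM (8.91 to 22.0), Pck1 at 6.85 CPM and Fbp1 at 2.74 CPM, and G6pc had 0 UMIs, which allows at most 2.06 CPM at 3 UMIs.

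Of 55 further genes of these routes, 46 had at least 50 UMIs in PTEC-like cells of Sham and most of these are named, and the other 9 had fewer. All values that follow are IRI24h-TDN against Sham in PTEC-like cells. Among 15 other gluconeogenesis genes, 14 could be compared, of which 4 were lower and 2 higher by at least 2-fold, with a median log2 of 0.37. Of all 9435 genes, 13.3% were lower and 13.1% higher by as much, and the counts of this and the next lists are to be read against those shares. Pcx was at 267 and 89.5 CPM (log2 -1.58, -1.82 to -1.35), Slc37a4 at 207 and 70.3 CPM (log2 -1.56, -1.83 to -1.30), and Mdh1, the cytosolic malate dehydrogenase, at 1315 and 581 CPM (log2 -1.18). Gapdh was at 958 and 16.5 CPM (log2 -5.86), but it is one of the 37 genes lower in every one of the 5 other classes, with 223 and 3.25 CPM in podocyte-like cells. The paralogs of the reported genes went the other way: Fbp2 from 14.9 to 199 CPM (log2 3.75, 3.44 to 4.06) and Pck2, the mitochondrial carboxykinase, from 7.11 to 32.4 CPM (log2 2.19, 1.63 to 2.75). G6pc3, the broadly expressed phosphatase, was at 49.4 and 73.6 CPM (log2 0.58). Gpi1, Tpi1, Pgk1, Pgam1, Eno1 and Mdh2, which act in both directions of the route or feed it, lay between -0.12 (Pgk1) and 0.78 (Eno1).

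Of the genes that bring lactate, amino acids and glycerol into the route, 3 were lower and 2 higher by at least 2-fold among 11 compared (13.3% and 13.1% of all genes), with a median log2 of -0.42. Gk (glycerol kinase) was at 704 and 240 CPM (log2 -1.55, -1.70 to -1.41), Mpc1 of the mitochondrial pyruvate carrier at 75.1 and 32.4 CPM (log2 -1.21) and Gpt (alanine transaminase) at 12.5 and 6.04 CPM (log2 -1.05, -2.10 to -0.15). The aspartate transaminases were higher, Got1 with log2 1.34 (1.13 to 1.54) and Got2 with 1.01 (0.90 to 1.13). Ldhb, Ldha and Glud1 stood at 0.23, 0.62 and 0.77, and Mpc2 and Gpd1 at -0.74 and -0.42.

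By at least 2-fold, fructose and polyol genes were lower in 4 of 7 compared and higher in none, with a median log2 of -1.23. Slc5a10, a sodium-dependent sugar transporter of the brush border, was at 237 and 35.7 CPM (log2 -2.73, -3.11 to -2.38), Glyctk (glycerate kinase) at 45.5 and 8.24 CPM (log2 -2.47), the fructose transporter Slc2a5 at 102 and 30.2 CPM (log2 -1.75) and Sord (sorbitol dehydrogenase) at 1009 and 430 CPM (log2 -1.23). Tkfc, the kinase of the glyceraldehyde made from fructose, was at -0.48, and Akr1b3 (aldose reductase) at -0.99 (-1.95 to -0.16). Slc2a2, the basolateral glucose carrier GLUT2, was at 153 and 266 CPM (log2 0.80, 0.65 to 0.95).

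Of 4 glycolytic genes compared that oppose these steps, 2 were higher by at least 2-fold, where 13.1% of all genes were, and none lower. Pfkp, a phosphofructokinase with 36 UMIs in Sham, was below the limit for naming and was named only after its values were seen. Of the 9 genes below that limit, 1 was compared and higher by at least 2-fold, which was Pfkp. It was at 4.65 and 85.1 CPM (log2 4.19, 3.66 to 4.76). Pkm (pyruvate kinase) was at 11.5 and 34.1 CPM (log2 1.57, 1.07 to 2.05), and the intervals of Pfkl (log2 0.16) and Pfkm (log2 -0.69) included 0. None of 11 compared regulators passed 2-fold, and their median was -0.27. Hnf4a, a transcription factor of the proximal tubule and liver, was at 595 and 426 CPM (log2 -0.48, -0.59 to -0.37), and Ppargc1a, a coactivator of gluconeogenic genes, at 79.6 and 62.1 CPM (log2 -0.36, -0.66 to -0.07). Among the others reported, Insr and Foxo1 were at -0.80 and -0.76, Cebpb at 0.96 (0.77 to 1.14), and the intervals of Ppara, Creb1, Sik1, Nr3c1 and Crtc2 included 0.

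**Figure D5:**
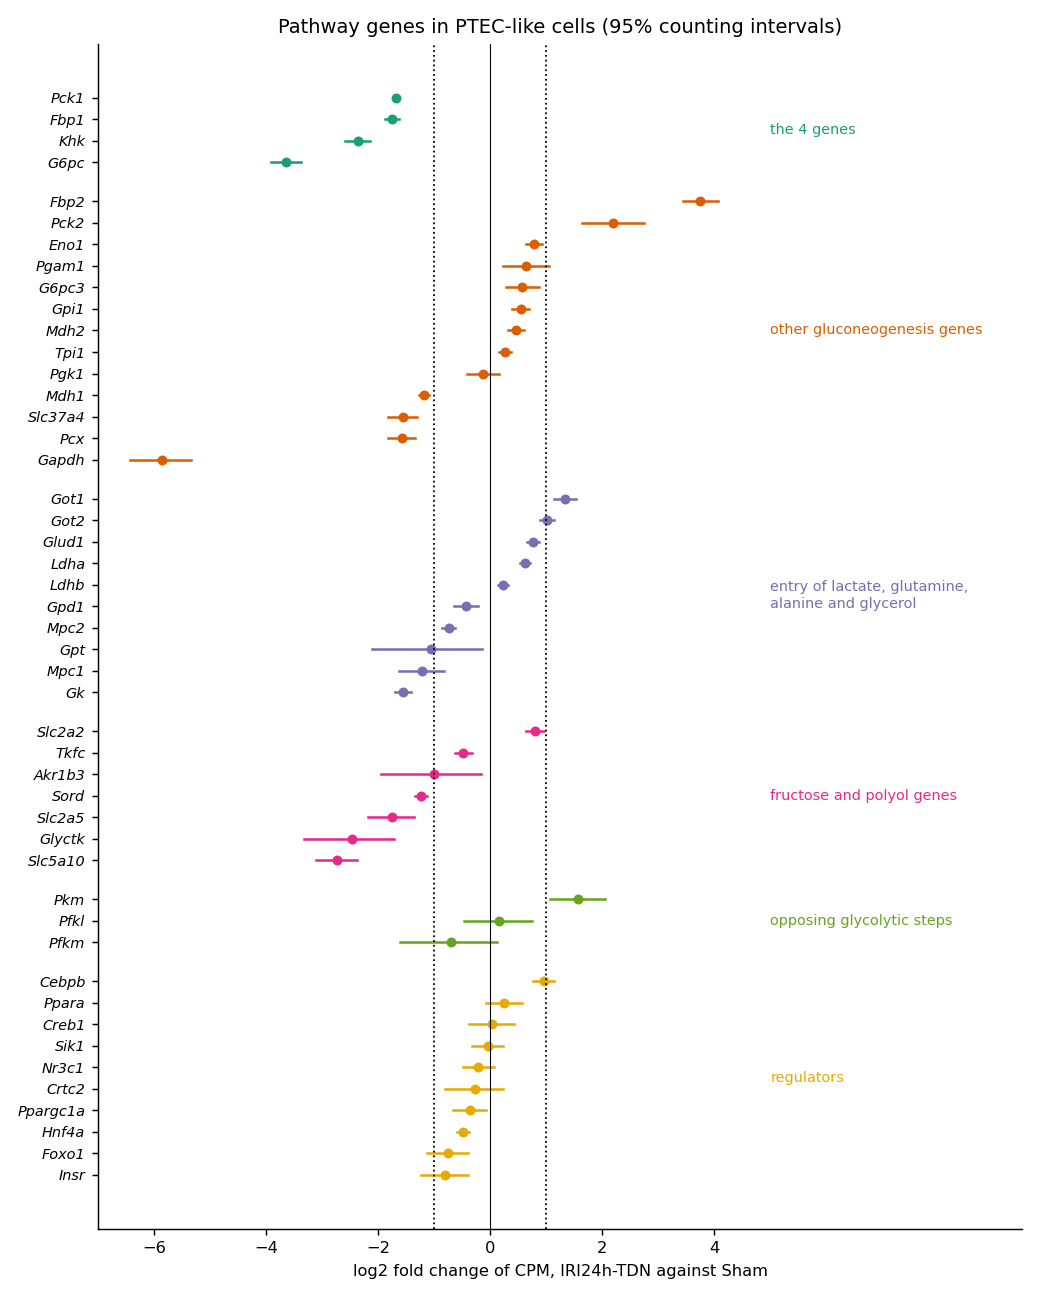
Log2 fold change of CPM in PTEC-like cells, IRI24h-TDN against Sham, for the 4 genes and pathway genes with at least 50 UMIs in Sham, grouped by role; lines are exact 95% counting intervals and dotted lines mark 2-fold. G6pc (-3.64) and Slc5a10 (-2.73) are far to the left and Fbp2 (3.75) and Pck2 (2.19) to the right, and Gapdh (-5.86) was also lower in the 5 other classes examined.

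Across 36 groups of class and library with at least 20 cells, the 4 genes followed each other on the log2(CPM + 10) scale, with Pearson's r from 0.86 (Pck1 with Khk) to 0.95 (G6pc with Fbp1). The groups share libraries and depth, and most hold levels near 0, so these r describe the rank of proximal over other cells. Among 12018 genes with at least 500 UMIs, those most like G6pc were Slc6a20b (r = 0.968), Nlrp6 (0.962), Gm10804 (0.958), Cyp4a10 (0.957) and Slc23a1 (0.956). Pck1 was most like Ugt2b38 (0.948), Fbp1 (0.944), Acsm2 (0.939), Nat8 (0.934) and Cyp2j5 (0.934). Acsm2 is one of the proximal markers that named the PTEC-like class, so its place here is partly built in. For Fbp1 the 5 nearest were Ugt2b38 (0.987), Cyp2j5 (0.985), Acsm2 (0.978), Akr1c21 (0.975) and Slc23a1 (0.969), and for Khk they were Slc6a13 (0.940), Akr1c21 (0.938), Nlrp6 (0.934), Mlxipl (0.932) and Mep1a (0.931).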

How the data were processed

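Single-cell suspensions were made into BD Rhapsody libraries. The submitters' processing notes name CASAVA 1.8, UMI-tools, Seurat and mm10, and the deposited tables hold raw UMI counts per gene and barcode, made by the authors and not normalized. The study states that multiplets were excluded. Barcodes with at least 200 genes and at most 50% mitochondrial UMIs were kept, scaled to 10000, reduced to 30 principal components of 2000 variable genes, corrected between libraries by the Harmony procedure (written in numpy 2.4.6) and clustered with Leiden (leidenalg 0.10.2, resolution 1). No marker list shares a gene with the pathway lists, and pathway genes were left out of clustering. PTEC and PEC clusters were clustered again. The naming rules were set after clusters were seen, 1592 cells stayed unnamed, and no doublets were removed in the main analysis. The genes, lists and markers were chosen with earlier results of these data known. Named were the 4 genes, pathway genes with at least 50 UMIs in PTEC-like cells of Sham, and the 5 genes most like each by Pearson's r. Pfkp, below that limit, was an exception made after its values were seen.

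UMIs were summed by class and library. Poisson, Clopper-Pearson and conditional binomial intervals (scipy 1.17.1) cover counting error only, and amplified reads are not independent beyond their UMIs. No test was run, since each condition is 1 library. Called genes differed by at least 2-fold with at least 50 UMIs over both groups, and a count of 0 was set to 3 UMIs. Thinning to 2000 UMIs left out shallower cells. The calling and interval code was tested on simulated data. TMM factors (edgeR 4.0.16) served as an alternative. Positions are from GENCODE M21 (GRCm38), and the aligner is not given in the sources used here. A few pathway genes counted in the lists are not reported here by name.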

Additional observations from a re-analysis of the deposited data

How the results depend on the processing

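G6pc, Pck1, Fbp1 and Khk stayed lower by at least 2-fold in PTEC-like cells of IRI24h-TDN than of Sham under every alternative run, and no value changed sign. G6pc and Pck1 stood at log2 -4.03 and -1.85 with at most 25% mitochondrial UMIs, -3.38 and -1.53 with more variable genes, -3.34 and -1.53 at Leiden resolution 1.5, and -3.31 and -1.40 as means of the cells' own CPM. With each cell classed alone, G6pc, Pck1 and Fbp1 were at -3.27, -1.40 and -1.56. Pck1 was at -1.74 with at least 500 genes and -1.56 with no correction between libraries. Thinned cells gave -1.39 for Pck1 and -1.91 for Fbp1. With TMM factors, Pck1, Fbp1 and Khk were at -1.95, -2.02 and -2.63. Chosen after seeing the data, leaving the genes that shifted between libraries out of the total gave -1.76 for Pck1, and adding the injured tubule-like cells gave -4.05 for G6pc, -2.16 for Pck1, -2.17 for Fbp1 and -2.62 for Khk. The share of genes lower was 4.64% at a 4-fold threshold.

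In Sham PTEC-like cells, G6pc and Pck1 were at 951 and 5066 CPM with at most 25% mitochondrial UMIs, 763 and 4092 CPM as means of cells, and 763 and 4082 CPM thinned. G6pc, Pck1 and Fbp1 were at 807, 4280 and 933 CPM with more variable genes and 810, 4277 and 934 CPM at Leiden resolution 1.5. G6pc, Pck1, Fbp1 and Khk were at 702, 3668, 822 and 459 CPM with each cell classed alone, and at 1035, 5725, 1212 and 631 CPM of non-mitochondrial, non-ribosomal UMIs. Thinning set the share of cells with G6pc, Pck1, Fbp1 and Khk to 55.3%, 95.2%, 80.4% and 57.3% in PTEC-like Sham cells, 11.4%, 65.8%, 30.7% and 16.7% in those of IRI24h-TDN, and 0.756%, 4.45%, 1.63% and 2.29% in podocyte-like Sham cells. By the mean of the cells' own CPM, 8, 8, 10 and 4 of 14 classes changed place for G6pc, Pck1, Fbp1 and Khk, while the first 3 places were kept. Places were compared only in the main classes. The Sham injured tubule-like class, 63 cells there, held 28 at Leiden resolution 1.5 and 25 with more variable genes. It held 13 with at least 500 genes and 8 with at most 25% mitochondrial UMIs. Without correction between libraries no cells bore that name, and the mixed PEC-PTEC-like class held 2 IRI24h-TDN cells. The causes of these shifts were not tested. No paired analysis was possible because each condition is 1 library, and for the same reason no replicate could be left out. The 49 PTEC-like cells of IRI24h-TD limit what that library can show.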
